A study of Bos taurus with 15 samples.

Results

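The data describe 10 genes that mark the endothelium of blood vessels, PECAM1, CDH5, KDR, FLT1, TEK, TIE1, ERG, EMCN, ESAM and NOS3, among the 13896 genes measured in the dewlap fat of dairy cows. The members were chosen by name, all 10 stood in each of the 6 tables of comparisons, and all 10 had exonic reads in each of the 15 libraries. The cows were primiparous Holsteins, and subcutaneous fat was taken by biopsy 4 weeks before calving (-4 weeks peripartum, wkpp), before the diets began, and again at 1 and 16 wkpp. The diet was from then on either rich in energy (HE, high energy) or poor in it (LE, low energy). The postpartum groups are named for their energy balance, moderately negative (MNEB) or severely negative (SNEB), and by the labels the MNEB libraries are from HE cows and the SNEB ones from LE cows. The 5 groups were -4 wkpp, MNEB 1 wkpp, MNEB 16 wkpp, SNEB 1 wkpp and SNEB 16 wkpp, with 3 libraries each, and the cows of the postpartum groups had been picked for the most extreme energy balance at 1 wkpp. Fat was sampled repeatedly from the same animals by the study's methods, so libraries of different times may share cows, but none could be tied to a cow, so the groups were treated as separate samples, and p-values measure the spread between these libraries only. All 15 libraries came from whole tissue, in which more endothelial cells and more RNA of a gene per cell cannot be told apart.

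Endothelial cells form the inner wall of every blood vessel and carry lipid, glucose and hormones to the fat cells around them. Growth factors of the VEGF family act through the receptors KDR and FLT1, and the angiopoietins act through TEK, with TIE1 as its partner. PECAM1, CDH5 and ESAM hold neighbouring cells together, EMCN is a sialomucin of the luminal surface, ERG is a transcription factor that maintains endothelial identity, and NOS3 makes the nitric oxide that relaxes vessels. PECAM1, ESAM and TEK are also found on some blood cells, and FLT1 on monocytes and macrophages.

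The MNEB libraries stood apart from the rest. They held 2030620 to 7538334 exonic gene reads, against 8215419 to 14855900 in the 9 libraries of -4 wkpp and SNEB, without COL1A1, COL3A1 and RN7SL1, whose reads could not be recovered. The paper lists similar total reads for all libraries, but a lower share of aligned reads in each MNEB library than in any other. The MNEB libraries also held more reads of the spike-ins, added control RNAs, relative to those of genes. The median of the deposited exonic log2 fold changes of the spike-ins was -3.10 for -4 wkpp against MNEB 1 wkpp (51 spike-ins), -2.88 for SNEB against MNEB at 1 wkpp and -3.78 at 16 wkpp. All fold changes below are therefore relative to the bulk of genes. Scaled to the spike-ins instead, the median of all genes moved to 3.59, 3.51 and 4.32 in these 3 comparisons, and the members turned from lower to higher with it, with medians of 2.73, 3.33 and 4.16. The labels also carry 2 unexplained codes, m1 and m2, each shared by all libraries of a group. Where 2 groups carry different codes, what the codes mark cannot be told apart from the group.

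Values of single libraries are given as normalised exonic reads, which are reads on the exons of a gene divided by the size factor of the library. Within a group the libraries are called a, b and c in the order of their size factors, since they could not be tied to cows. The lowest exonic count of a member was 165 reads, for ESAM. A gene was called when the adjusted p in the authors' deposited DESeq2 table was below 0.01 in both analyses, of exons and of the whole gene, with the same sign. A log2 fold change is that of the first group named over the second.

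Of the 10 members, 9 had their highest group mean at 1 wkpp in MNEB cows, the exception being EMCN, but without library a of that group it was 5, and CDH5, KDR, TEK and ESAM were then highest in SNEB 1 wkpp. Relative to the bulk of genes, PECAM1 and TEK had more exonic reads in every library of 1 wkpp than in the libraries of -4 and 16 wkpp of the same diet, as 0.641% of 10457 genes did, and in whole gene reads this held for PECAM1 alone. By contrast, TIE1, ERG and NOS3 had higher group means in both MNEB groups than in any group outside MNEB.

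**Figure D1:**
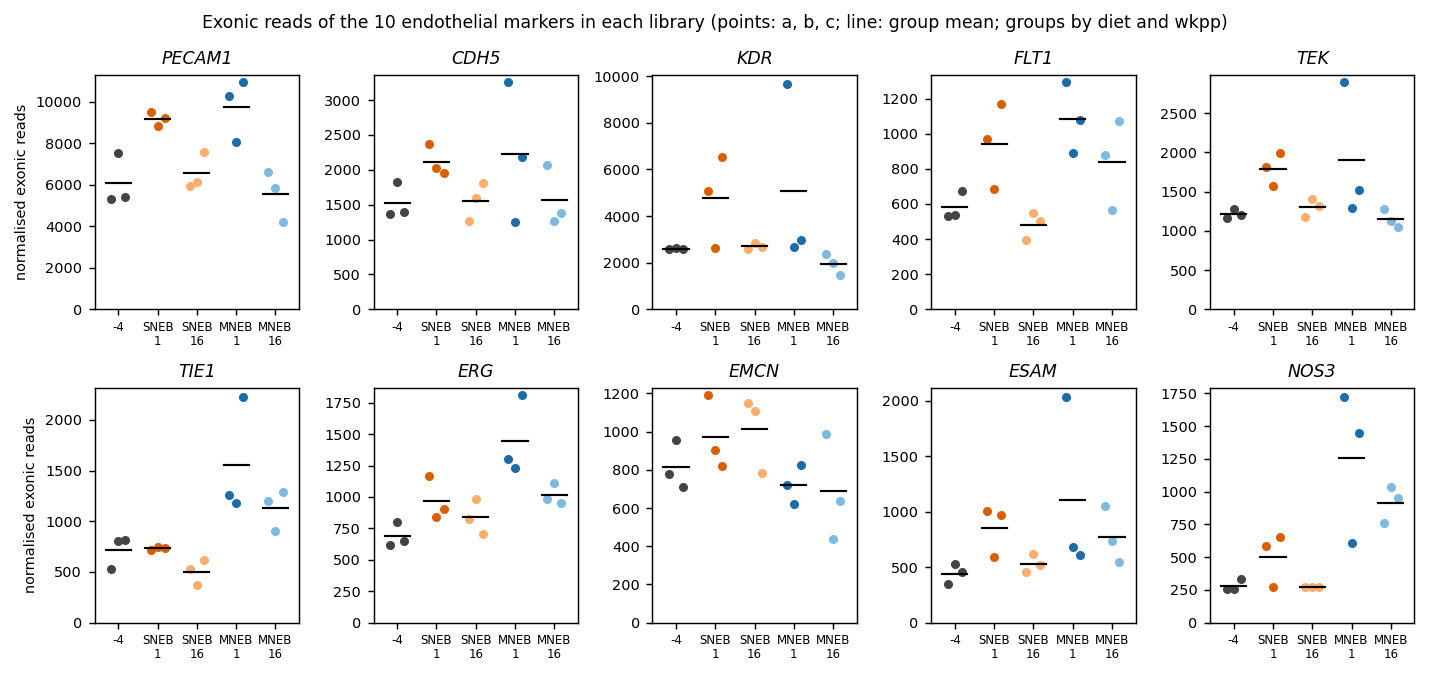
Normalised exonic reads of the 10 members in each of the 15 libraries (linear axes from 0, 1 panel per gene), by group, with the group mean as a line. TIE1 was between 905 and 2224 in the 6 MNEB libraries and between 368 and 815 in the 9 others, on a scale set by the bulk of genes. In 9.79% of 10457 genes all 6 MNEB libraries lay above the 9 others.

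Among the junction and adhesion genes, PECAM1, which joins endothelial cells to each other and to passing leukocytes, had 5293, 7509 and 5428 normalised exonic reads at -4 wkpp. It had 9489.8, 8813 and 9234 in SNEB 1 wkpp and 5922, 6149 and 7564 in SNEB 16 wkpp. In MNEB cows it had 10263, 8061 and 10969 at 1 wkpp and 6630.4, 5848 and 4216 at 16 wkpp. All 6 libraries of 1 wkpp thus lay above all 9 of the other times, as in 0.153% of genes, and they did so in whole gene reads too. The deposited exonic log2 fold change was -0.65 (SE 0.24) for -4 wkpp against MNEB 1 wkpp and -0.56 (SE 0.19) against SNEB 1 wkpp, and neither was called, with adjusted p of 0.0261 and 0.0502 in the authors' DESeq2 table.

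CDH5, the cadherin of endothelial adherens junctions, had 1367, 1822 and 1395 normalised exonic reads at -4 wkpp, 2369.6, 2031 and 1952 in SNEB 1 wkpp and 1264, 1596 and 1813 in SNEB 16 wkpp. In MNEB cows it had 3266, 1251 and 2179.9 at 1 wkpp and 2064, 1267 and 1381 at 16 wkpp. The SNEB libraries of 1 wkpp lay above those of -4 and 16 wkpp, while in MNEB the groups overlapped. No comparison of CDH5 was called, and its largest deposited exonic difference was -0.51 (SE 0.34) for -4 wkpp against MNEB 1 wkpp, where the whole gene value was -0.73 (SE 0.38). By limma voom the exonic value was -0.44, and it was -0.12 without library a of MNEB 1 wkpp and -0.81 without library b.

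ESAM, an adhesion molecule of tight junctions, had 344, 526 and 454 normalised exonic reads at -4 wkpp and 1003, 593 and 971 in SNEB 1 wkpp, with no overlap. It had 2032, 681 and 607 in MNEB 1 wkpp, where library a was far above the others. At 16 wkpp it had 453, 616 and 519.9 in SNEB and 1049, 735 and 542 in MNEB cows. The deposited exonic log2 fold change was -0.86 (SE 0.25) for -4 wkpp against SNEB 1 wkpp and -1.23 (SE 0.42) against MNEB 1 wkpp, with adjusted p of 0.0146 and 0.0135 in the authors' DESeq2 table, above the threshold. By limma voom the latter was -1.20, and -0.58 without library a of MNEB 1 wkpp.

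EMCN did not follow the others. It had 779.8, 957 and 709.9 normalised exonic reads at -4 wkpp, 1192, 904 and 819.5 in SNEB 1 wkpp and 1148, 1109.7 and 781 in SNEB 16 wkpp. In MNEB cows it had 721, 619 and 827 at 1 wkpp and 990.0, 437 and 636 at 16 wkpp. Its exonic ranges overlapped in all 6 comparisons and no comparison was called. Its exonic group mean was lowest in the MNEB groups, at 722 and 688 against 816 to 1013, whereas its whole gene mean was highest there, at 4646 and 5405 against 4231 to 4516.

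Of the VEGF receptors, KDR, the main signalling receptor, was steady before calving, at 2576, 2608 and 2567 normalised exonic reads. It had 5092, 2637 and 6549 in SNEB 1 wkpp and 9665, 2654 and 2967 in MNEB 1 wkpp, so that libraries a and c of SNEB and library a of MNEB were far above the level of -4 wkpp and the other libraries were closer to it. At 16 wkpp it had 2577, 2857 and 2678 in SNEB and 2369, 1972 and 1459.6 in MNEB cows, and the SNEB libraries lay above the MNEB ones. The ratio of the highest to the lowest library was 3.64 in MNEB 1 wkpp, the widest spread of any member within a group. The authors' deposited table gives KDR no p-value for the pair of comparisons -4 wkpp against MNEB 1 wkpp and MNEB 1 against 16 wkpp, which DESeq2 does when a single library lies far from its group.

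FLT1, the other VEGF receptor and a trap for the ligand, had 534, 535 and 672 normalised exonic reads at -4 wkpp. It had 972, 685 and 1169.6 in SNEB 1 wkpp and 1293, 889 and 1077 in MNEB 1 wkpp, all above -4 wkpp. At 16 wkpp it had 394, 549 and 501 in SNEB cows, below all 3 MNEB libraries at 880.4, 563 and 1075. In the authors' DESeq2 table the exonic log2 fold change for -4 wkpp against MNEB 1 wkpp was -0.87 (SE 0.25) with an adjusted p of 0.00225, and the whole gene analysis gave no p-value, so FLT1 was not called. For SNEB 16 against MNEB 16 wkpp the whole gene value of -0.93 had an adjusted p of 0.000765 and the exonic value of -0.76 one of 0.0197 in the same tables.

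Of the angiopoietin receptors, TEK had 1167, 1284 and 1207 normalised exonic reads at -4 wkpp and 1812, 1574 and 1986 in SNEB 1 wkpp. It had 1176, 1400.5 and 1320.5 in SNEB 16 wkpp, 2901, 1292 and 1518 in MNEB 1 wkpp and 1279.5, 1131 and 1053 in MNEB 16 wkpp. In exons the libraries of 1 wkpp lay above those of -4 and 16 wkpp within each diet, in MNEB by a narrow margin, with library b at 1292 against 1284 in library b of -4 wkpp. In whole gene reads the MNEB libraries overlapped, library b of 1 wkpp having 2882 against 3031 in library b of -4 wkpp and 3794 in library b of 16 wkpp. The difference between -4 wkpp and SNEB 1 wkpp was past the threshold in the whole gene analysis only, at -0.65 with an adjusted p of 0.00859 in the authors' DESeq2 table, against -0.53 and 0.0329 for exons.

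TIE1 showed another pattern. It had 532, 809.8 and 815 normalised exonic reads at -4 wkpp, 720.0, 745 and 739 in SNEB 1 wkpp and 524, 368 and 614 in SNEB 16 wkpp. In MNEB cows it had 1256, 1178 and 2224 at 1 wkpp and 1200.3, 905 and 1286 at 16 wkpp. All 6 MNEB libraries lay above all 9 others, as 9.79% of 10457 genes did in exonic reads. In whole gene reads TIE1 was also apart, at 1462 to 3033 against 613 to 1273, as was ERG, at 7673 to 11552 against 4043 to 6958, where 5.88% of 11712 genes were. TIE1 was called in 3 comparisons, in each as lower than in MNEB cows relative to the bulk of genes: 2.06-fold at -4 against MNEB 1 wkpp, 1.99-fold in SNEB against MNEB at 1 wkpp and 2.17-fold at 16 wkpp. For values centred on the median gene, p was recomputed from the shifted fold change over its SE and adjusted without the filter on low counts. The call at 16 wkpp was then kept and the others were lost. Their exonic log2 fold changes were then -1.06 and -1.05, against -1.04 and -0.99. In the whole gene analysis, which the rule also needs, the median gene was at -0.09 and -0.02, so TIE1 moved towards 0. Scaled to the spike-ins, the members as a set were higher, not lower, in each of the 3 comparisons.

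ERG had 615, 801 and 653 normalised exonic reads at -4 wkpp and 1168, 839 and 903 in SNEB 1 wkpp. It had 820.3, 982 and 708 in SNEB 16 wkpp, 1303, 1227 and 1809 in MNEB 1 wkpp and 982, 1108 and 953 in MNEB 16 wkpp. Its group mean was lowest at -4 wkpp, at 689, and highest in MNEB 1 wkpp, at 1446, and these libraries did not overlap. The exonic log2 fold change between these groups was -1.02 (SE 0.25) and the whole gene one -0.99, called with adjusted p of 0.000273 and 0.000256 in the authors' DESeq2 table.

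NOS3 differed most. It had 254, 258 and 334 normalised exonic reads at -4 wkpp and 272, 271 and 268 in SNEB 16 wkpp, and 584, 269 and 656 in SNEB 1 wkpp. In MNEB cows it had 1719, 605 and 1448 at 1 wkpp and 758, 1033 and 951 at 16 wkpp. The group means were 282 ± 45.3 (SD, n = 3) at -4 wkpp and 1258 ± 581 (SD, n = 3) in MNEB 1 wkpp. The exonic log2 fold change between these was -2.04 (SE 0.36), a 4.10-fold difference, with an adjusted p of 2.38e-07 in the authors' DESeq2 table. At 16 wkpp NOS3 was lower in SNEB by a log2 fold change of -1.70 (SE 0.20), a 3.25-fold difference, with an adjusted p of 1.01e-15 there, and the SNEB and MNEB libraries did not overlap. At 1 wkpp the value was -1.16 (SE 0.40) with an adjusted p of 0.0198 in the same table, and NOS3 was not called.

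For -4 against MNEB 1 wkpp the deposited exonic log2 fold change was negative in 9 of 10 members, with a median of -0.89, against 0.02 for 10523 genes with a mean count of at least 10. TIE1, ERG and NOS3 were called, 3 of the 8 members tested in both analyses, where 6.54% of 9731 genes were called in that direction. Centred on the median gene, with p recomputed without the filter on low counts, the deposited values kept ERG and NOS3 as calls. TIE1 was lost, and its exonic value was then -1.06, against -1.04. A separate fit with limma voom on the reads of single libraries called the same 3 members, against 6.75% of 10346 genes. Without library a of -4 wkpp this fit called none of them, and without library c of -4 wkpp or library c of MNEB 1 wkpp it called ERG alone. Without library a of MNEB 1 wkpp it called TIE1 and ERG, and without library b of -4 wkpp PECAM1, TIE1 and ERG. NOS3 was thus called only with all 6 libraries or without library b of MNEB 1 wkpp, while its exonic log2 fold change stayed between -2.51 and -1.72 whichever library was left out. In exonic reads the libraries did not overlap in 8 members, all but CDH5 and EMCN, against 23.9% of genes. In whole gene reads, where this share was not taken, they did not overlap in 6.

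For -4 against SNEB 1 wkpp the value was negative in all 10 members, with a median of -0.55 against -0.03 for all genes, and it ranged from -0.86 for ESAM to -0.03 for TIE1. None of the 8 members tested in both analyses was called by the DESeq2 rule or by limma voom, where 2.33% of 10319 genes were called in either direction by the former. The unadjusted exonic p was under 0.05 for 8 members in the authors' DESeq2 table, all lower at -4 wkpp as 5.18% of 13202 genes were, and for 6 by limma voom, against 6.61% of 10457 genes. In exonic reads the libraries did not overlap in 7 members, PECAM1, CDH5, KDR, FLT1, TEK, ERG and ESAM, against 9.34% of genes. In whole gene reads, where this share was not taken, they did not overlap in 4. Both comparisons share the 3 libraries of -4 wkpp, so their signs are not independent.

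**Figure D2:**
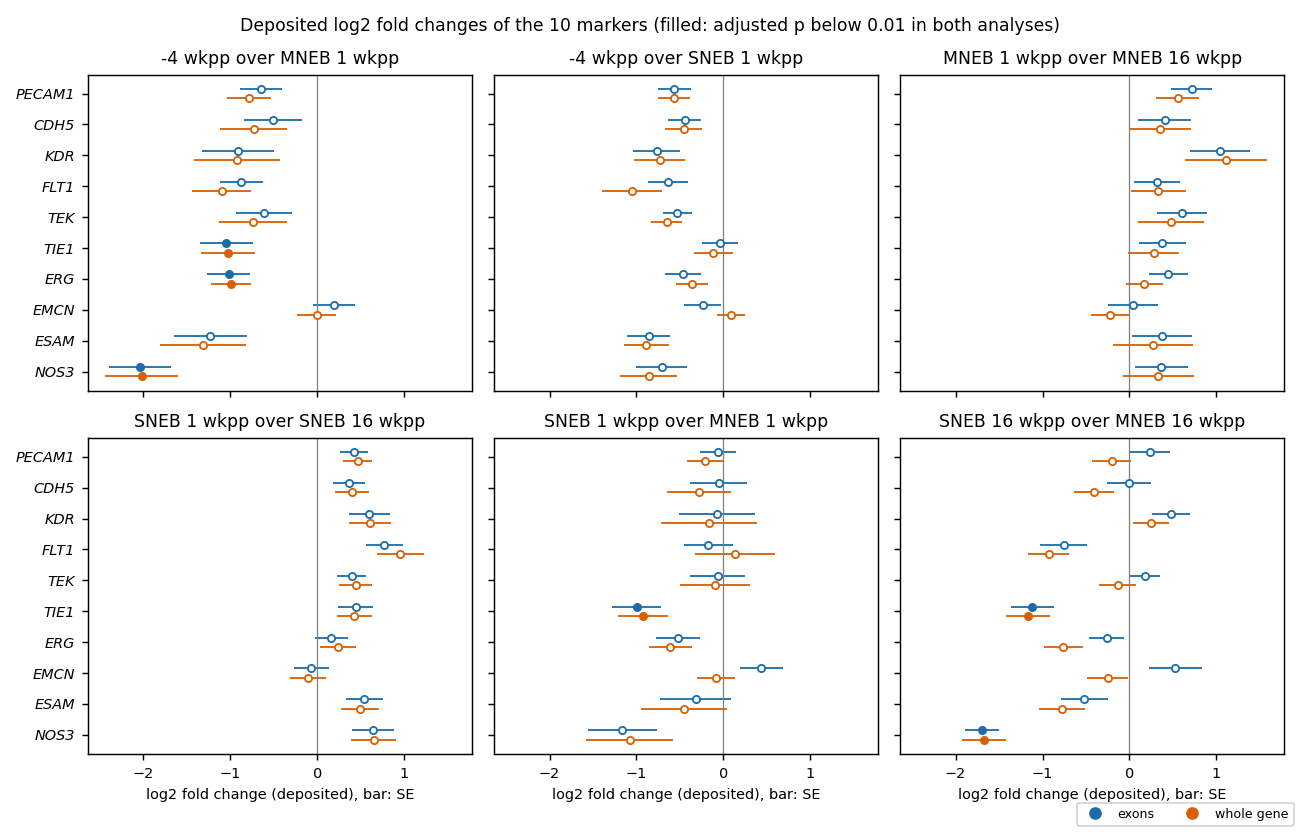
Log2 fold changes of the 10 members in the 6 comparisons for exons and for the whole gene, first group over second, with bars for the standard errors, as the authors deposited them, and filled points for called members. In exons 9 of 10 values were below 0 for -4 against MNEB 1 wkpp and all 10 for -4 against SNEB 1 wkpp, relative to the bulk of genes, and scaling to the spike-ins turns the comparisons that cross to MNEB upwards.

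From 1 to 16 wkpp no member was called. These comparisons share the libraries of 1 wkpp with those of -4 against 1 wkpp, so opposite signs are not independent. In MNEB cows all 10 exonic values were positive (1 wkpp over 16 wkpp), with a median of 0.39 against 0.01 for all genes, and in SNEB cows 9 were, with a median of 0.43 against -0.005. By limma voom the MNEB median was 0.42, and 0.71 without library b of MNEB 1 wkpp. By the DESeq2 rule 0.529% of 6995 genes were called in MNEB and 0.114% of 8780 genes in SNEB cows, in either direction, and limma voom called no member. The unadjusted exonic p was under 0.05, with higher values at 1 wkpp, for 3 members in MNEB (against 5.38% of genes) and 8 in SNEB (against 3.76%) in the authors' DESeq2 tables. By limma voom it was under 0.05 for 4 members in MNEB (against 6.78%) and 4 in SNEB (against 5.06%). In exonic reads the libraries did not overlap in 4 members in MNEB cows (PECAM1, KDR, TEK and ERG, against 9.91% of genes). In SNEB cows they did not overlap in 5 (PECAM1, CDH5, FLT1, TEK and TIE1, against 8.09% of genes). In whole gene reads they did not overlap in 2 members in MNEB and 4 in SNEB cows. Scaled to the spike-ins, the median of the members in SNEB cows turned to -0.63 where that of all genes was -1.16.

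Whether this change differed in size between the diets was asked by a Wald test on SNEB minus MNEB, taken from the deposited log2 fold changes of comparisons without a common library. The test was possible for 9 members in exons (not KDR) and 8 in the whole gene (not KDR or FLT1). None of these was called, with a lowest adjusted p of 0.980 for exons and 0.916 for the whole gene, while 2 of 12730 and 10 of 11903 genes were called, and none of the members tested had an unadjusted p under 0.05. For KDR the untested difference, SNEB minus MNEB, was -0.44 in exons and -0.50 in the whole gene. For PECAM1 the difference, SNEB minus MNEB, was -0.29 (SE 0.29) and for FLT1 it was 0.45 (SE 0.34). A limma voom fit of the same difference called no member either.

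At 1 wkpp most members had small values with wide errors between SNEB and MNEB cows. The deposited exonic median was -0.12 against 0.05 for all genes, and PECAM1, CDH5, KDR and TEK lay between -0.07 and -0.05, with SE of 0.21 to 0.44. TIE1 was called at -0.99 (SE 0.28), with an adjusted p of 0.00376 in the authors' DESeq2 table, 1 of 9 members tested against 4.54% of 10681 genes called lower in SNEB. Limma voom called no member here, with an adjusted p of 0.030 for TIE1 in its whole gene fit. TIE1 was also lost when the deposited values were centred on the median gene and their p recomputed. By limma voom the median of the members was -0.15, and 0.16 without library a of MNEB 1 wkpp. TIE1 and ERG did not overlap in exonic or in whole gene reads, against 20.4% of genes in exonic reads.

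At 16 wkpp the deposited exonic median was -0.13 and the whole gene median -0.58, against 0.03 and 0.01 for all genes, and the members went different ways. TIE1 at -1.12 (SE 0.25) and NOS3 at -1.70 were called lower in SNEB, 2 of 10 members, where 7.96% of 9903 genes were called in that direction. Limma voom called TIE1 alone in both analyses, against 3.62% of 10346 genes, with an adjusted p of 0.020 for NOS3 in its whole gene fit, and it called no member when any 1 of 5 libraries was left out, the exception being library c of SNEB 16 wkpp. In exonic reads the SNEB libraries lay below the MNEB ones without overlap for FLT1, TIE1 and NOS3, against 21.7% of genes. They lay above them for KDR, against 21.9% of genes. In whole gene reads 6 members did not overlap.

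To compare the members with each other, each was set against the mean of the other 9 in the same library, on the log2 scale of exonic reads, a contrast that the scaling of the library does not enter. NOS3 was the member that moved most: its mean was -2.001 at -4 wkpp, -1.79 in SNEB 1 wkpp and -2.09 in SNEB 16 wkpp, and -0.68 and -0.48 in MNEB 1 and 16 wkpp. All 6 MNEB libraries, between -1.19 and -0.13, lay above the 9 others, between -2.35 and -1.41, the only member with such a gap in exonic reads. The share of all genes with such a gap on this scale was not computed. In whole gene reads NOS3 overlapped, with a lowest MNEB library at -2.14 and a highest other one at -2.10. The exonic means of EMCN were -0.30 at -4 wkpp, -0.65 and 0.003 in SNEB 1 and 16 wkpp and -1.43 and -1.01 in MNEB 1 and 16 wkpp, and the libraries overlapped, at -1.89 to -0.58 in MNEB and -1.05 to 0.32 elsewhere. In whole gene reads the mean of EMCN in MNEB 16 wkpp (0.80) lay above that in SNEB 1 wkpp (0.47). KDR was lowest in MNEB 16 wkpp, at 0.70 against 1.42 to 1.81 in the other groups. TIE1 had -0.52 at -4 wkpp, -1.07 and -1.13 in SNEB and -0.26 and -0.14 in MNEB cows, and overlapped. In exonic reads ERG varied least, its group means spanning 0.35, and in whole gene reads CDH5 did, at 0.26.

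**Figure D3:**
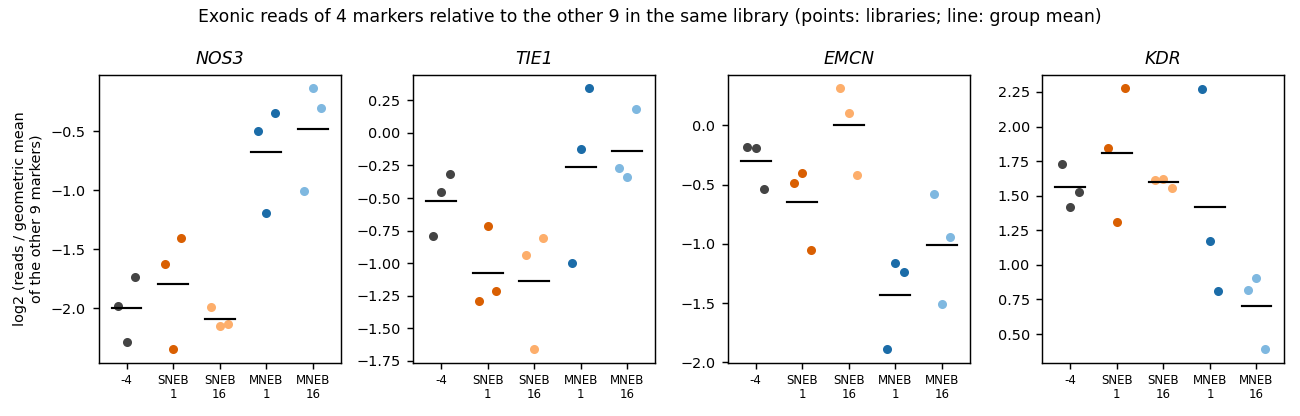
Exonic log2 level of NOS3, TIE1, EMCN and KDR, each relative to the mean of the other 9 members in the same library, by group, with 1 point per library and a line for the group mean. NOS3 lay between -1.19 and -0.13 in the 6 MNEB libraries and between -2.35 and -1.41 in the 9 others, a contrast that does not depend on the scaling of the libraries, while in whole gene reads (not drawn) they overlapped. The share of all genes with such a gap was not computed.

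The libraries of a group also differed from each other. The geometric mean of the 10 members was 2344, 1275 and 1791 normalised exonic reads in the MNEB 1 wkpp libraries a, b and c, where b was lowest for 9 members, and these libraries held 7011728, 2597758 and 2030620 exonic gene reads. It was 1612, 1164 and 1578 in SNEB 1 wkpp, where b was lowest for 7, 874, 1075 and 990 at -4 wkpp, 941, 1038 and 1014 in SNEB 16 wkpp and 1422, 1120 and 1145 in MNEB 16 wkpp. The highest library exceeded the lowest by more than 1.5 times in 6 members in each MNEB group, in 4 in SNEB 1 wkpp, in 2 at -4 wkpp and in 1 in SNEB 16 wkpp. The part of the number of gene reads in this spread was not tested.

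The share of reads outside exons differed between members. Over all libraries it was 28.0% for NOS3, 27.5% for ESAM, 32.5% for KDR, 32.9% for CDH5, 34.7% for TIE1 and 37.7% for PECAM1, and 57.9% for TEK, 76.5% for FLT1, 80.3% for EMCN and 84.9% for ERG. The whole gene values of the last 4 rest mostly on reads outside exons. Over 9410 genes the median share was 31.5% to 44.8% in the MNEB libraries and 40.9% to 52.7% in the others. EMCN had 82.9% to 89.4% in MNEB and 70.8% to 87.2% in the others. Its log2 fold change for SNEB against MNEB at 16 wkpp was 0.53 in exons and -0.25 in the whole gene, neither called. Whether this share had a part in the differences between exon and whole gene values was not tested.

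**Figure D4:**
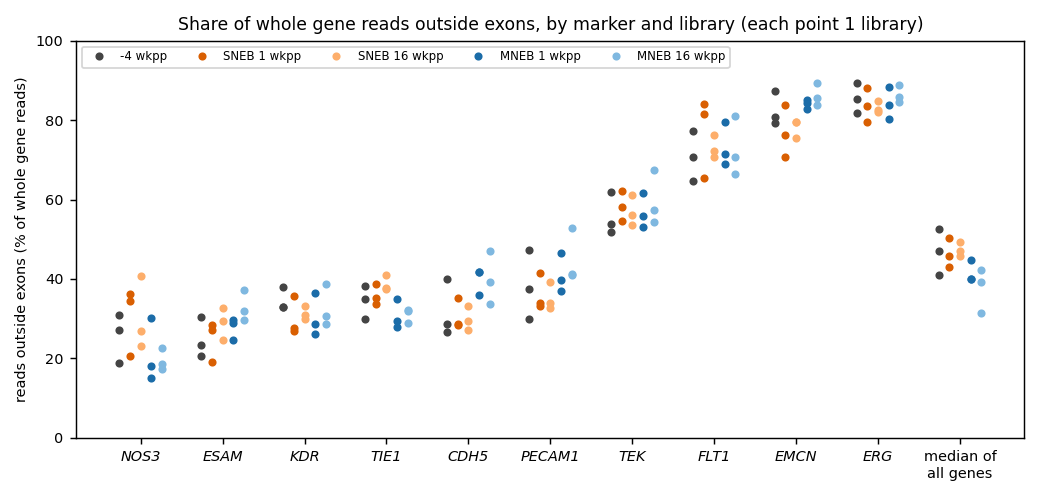
Percentage of the reads of each member that lay outside its exons, with 1 point per library, by group, and the median over all genes at the right. FLT1, EMCN and ERG had more reads outside exons (76.5%, 80.3% and 84.9% over all libraries) than the other members.

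The wider set of vessel genes was read by the same rule, in lists chosen for their known roles, with earlier results of these data known. For -4 against MNEB 1 wkpp and SNEB against MNEB at 1 and 16 wkpp, 6.54%, 4.54% and 7.96% of all genes tested were called lower and 5.21%, 2.89% and 4.72% higher. Of 30 other endothelial genes, 27 were tested in both analyses for -4 against MNEB 1 wkpp, with 6 called lower and 1 higher. For SNEB against MNEB 28 were tested at 1 wkpp, with 3 lower and 1 higher, and 30 at 16 wkpp, with 6 lower and 3 higher. The median of the list was -0.12, 0.23 and 0.15 in these comparisons. The lower genes included ROBO4, a guidance receptor that steadies vessels, at -2.61, -1.86 and -1.69. RASIP1, needed for vessel lumens, was at -1.90 for -4 against MNEB 1 wkpp, and EGFL7, a secreted factor of endothelium, at -1.16 and -1.27 in SNEB against MNEB at 1 and 16 wkpp. THBD, which turns thrombin to an anticoagulant, was called higher instead, at 1.41 to 1.59, and at 16 wkpp ACKR1, a venule chemokine receptor, was called at 1.67 and RAMP2, which pairs with the adrenomedullin receptor, at 1.33. For -4 against SNEB 1 wkpp only VWF, the clotting glycoprotein of endothelium, was called, at -0.72. It was 1 of 28 tested, where 2.33% of all genes were called in either direction.

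Of 12 VEGF and angiopoietin genes, 9 were tested for -4 against MNEB 1 wkpp, with 2 called lower (6.54% of all genes). For -4 against SNEB 1 wkpp 12 were tested, with 1 called lower, where 2.33% of all genes were called in either direction. VEGFA, the main ligand of KDR, was called lower at -4 than at 1 wkpp under both diets, at -1.82 for MNEB and -1.37 for SNEB. It had 611, 662 and 639.8 normalised exonic reads at -4 wkpp, 3052, 593 and 3195 in SNEB 1 wkpp and 3632, 2297 and 1298 in MNEB 1 wkpp. Library b of SNEB 1 wkpp was thus at the level of -4 wkpp, as it was for KDR (2637) and NOS3 (269). ANGPT2, the angiopoietin that loosens vessels, was at -1.08 for -4 against MNEB 1 wkpp. At 16 wkpp FIGF (VEGF-D) was higher in SNEB at 2.17, and ANGPT1 and PDGFB were lower at -1.39 and -1.16. Of 11 tested there, 1 was called higher and 2 lower, against 4.72% and 7.96% of all genes.

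Of 12 Notch and ephrin genes, 10 were tested for -4 against MNEB 1 wkpp and 5 were called lower at -4 (6.54% of all genes), among them NOTCH4 at -2.43, EPHA2 at -2.02 and DLL4 at -1.59. All 12 were tested for SNEB against MNEB at 16 wkpp, and 4 were called lower (7.96% of all genes). NOTCH4, the Notch receptor of endothelium, was also called lower in SNEB at 1 wkpp (-1.57) and, in MNEB cows, higher at 1 than at 16 wkpp (0.89). Of 19 genes of the nitric oxide pathway, 17 were tested for -4 against MNEB 1 wkpp and 2 called lower (6.54% of all genes). These were EDN1, the vasoconstrictor endothelin, at -1.74 and GUCY1B3, a subunit of the receptor of nitric oxide, at -1.29. For SNEB against MNEB at 16 wkpp 17 were tested and 2 called lower (7.96% of all genes). These were GUCY1B3 at -1.59 and AKT1, a kinase that activates NOS3, at -0.91. Of 20 endothelial transcription factors, of which 16 to 20 were tested, 1 was called in each of 3 comparisons, a share near that of all genes: LYL1 (-1.496) for -4 against MNEB 1 wkpp, HEY1 (-1.30) for -4 against SNEB 1 wkpp and NR2F2 (-1.37) for SNEB against MNEB at 16 wkpp. Of 11 junction genes only PVRL2 was called, at -0.99 for -4 against MNEB 1 wkpp, 1 of 9 tested (6.54% of all genes).

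The 5 genes whose 6 exonic log2 fold changes were nearest to the medians of the members, of 6134 genes with a mean count of at least 100 in all tables, were PPP1R16B, C1H21orf33, TEAD2, GFOD2 and BRPF3, with root mean square differences of 0.07 to 0.11. Of the members, CDH5 was nearest at 0.17 and NOS3 farthest at 0.91.

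Markers of other cells moved along the same groups. The summed normalised exonic reads of 7 lymphatic endothelial markers were 895 to 2583 in MNEB and 3675 to 7296 in the 9 other libraries, with MMRN1 called higher in SNEB by 3.24 and 3.46 at 1 and 16 wkpp. At 1 wkpp 1 other marker, STAB2, was called lower in SNEB, at -2.59 with a mean of only 13.9 exonic reads, and at 16 wkpp LYVE1 was the other called higher, at 2.60. For -4 against MNEB 1 wkpp CCL21 and LYVE1 were called higher, at 4.65 and 2.84, 2 of 7 tested (5.21% of all genes). The sums of 5 fibroblast markers were 21498 to 46324 in MNEB and at least 59749 elsewhere, with PDGFRA called at 2.37 for -4 against MNEB 1 wkpp. The sums of 7 macrophage markers were 2462 to 8778 in MNEB and 7810 to 23744 elsewhere, and 7 adipocyte markers had 10781 to 58640 in MNEB and 43405 to 89652 elsewhere. The sums of 10 pericyte and smooth muscle markers overlapped, at 29129 to 85339 in MNEB and 12782 to 60736 elsewhere, with medians of 0.40 for -4 against MNEB 1 wkpp and -0.13 and -1.38 for SNEB against MNEB at 1 and 16 wkpp. SMTN was the only one called in the first and second of these (-2.24 and -1.99), and 1 of 4 called lower in SNEB at 16 wkpp (-2.76).

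Platelet markers, 2 in number, had 357 to 1360 in MNEB and 146 to 260 elsewhere, with ITGA2B called at -1.63, -1.44 and -0.94. The skeletal muscle sum was 2959 to 10227 in MNEB and 651 to 6463 elsewhere, mostly TNNT3 and DES. Red cell markers summed to at most 353 in any library, with HBM at 0 in all 15 and HBA in 11. Skin markers summed to at most 906, with KRT5 at 0 in 5 libraries and KRT14 in 7. KRT85, a hair keratin, had 249.8, 93 and 205 at -4 wkpp and 0 in all 3 SNEB 1 wkpp libraries, and was called higher at -4 than in SNEB 1 wkpp. The part of these cells in the values of the members was not tested.

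**Figure D5:**
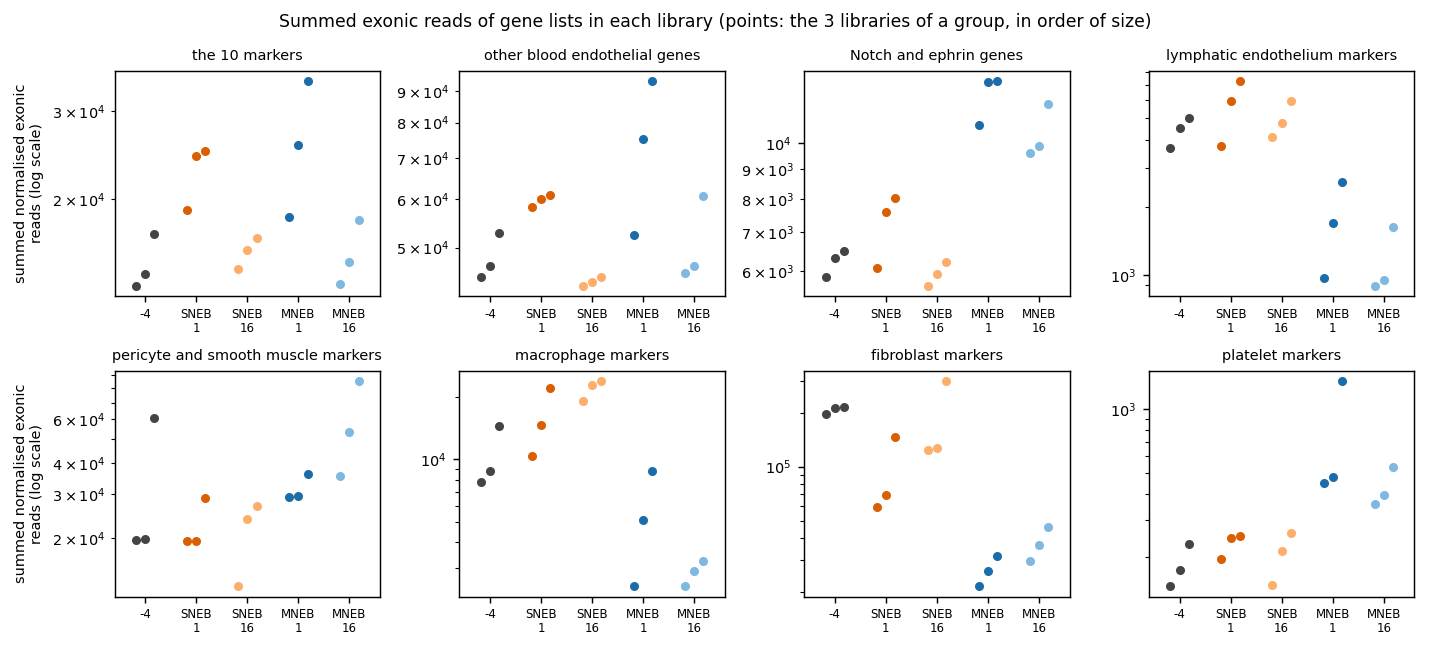
Summed normalised exonic reads of the members, of other vessel genes and of markers of other cell types, 1 panel per list, in each of the 15 libraries (log axis), by group. Lymphatic and fibroblast markers lay lower in all 6 MNEB libraries than in the other 9 on a scale set by the bulk of genes, while the members did not.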

How the data were processed

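RNA of dewlap fat was sequenced by the authors after ribosomal depletion (stranded, single-end), trimmed with Cutadapt 1.3, aligned with TopHat2 to bosTau8 and counted by htseq-count on exons and on the whole gene, and 3 libraries were compared with 3 others by DESeq2. The deposited tables, 6 in number, hold 13896 genes and 92 spike-ins, and 0 columns of other samples were found. They give mean counts after division by size factors, log2 fold changes shrunken towards 0 by the authors with their standard errors, and the authors' p-values, raw and adjusted. The deposited test score (log2 fold change over its standard error) was not used. Genes that DESeq2 left without a p-value stayed without one, as in 9 of the 120 values of the members.

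Whole reads of each library were recovered from the deposited mean counts, which are sums of whole reads divided by fixed size factors, by lattice reduction (Python 3.11.15, sympy 1.14.0). This gave 13980 of 13988 features in each analysis, with a largest relative residual of 7.80e-15, and size factors recomputed from the reads differed by at most 0.0795%. The reads of COL1A1 (exons only), COL3A1, RN7SL1 and several of the most abundant spike-ins, 5 in exons and 6 in whole genes, were not recovered, so these enter no library value. The recovery was tested on simulated data. The libraries of a group could not be tied to cows. Reads were normalised by median-of-ratios size factors over genes.

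The planned test, the authors' rule of an adjusted p below 0.01 in both analyses, was kept, and limma voom 3.58.1 (R 4.3.3) on the recovered reads of genes with a mean of at least 10 was added after the tables were seen. It was tested on simulated data. With 3 libraries against 3 an exact permutation test cannot go below 0.1, so none was run. Alternatives were either analysis alone, an adjusted p below 0.05, no filter, other scalings, centring and each library left out. Centring took the median log2 fold change of genes with a mean of at least 10 off each value. It also recomputed p from the standard error and adjusted it over all genes with a p-value, without the filter on low counts. The members and the 15 lists were chosen with earlier results of these data known. All members are named. A listed gene is named when called and its mean exonic count reaches 100, at most 3 per list, comparison and direction, and the 5 genes nearest to the medians of the members. Not every gene that meets this rule is named here, and those left out are mostly markers of other cells. Coordinates and sequences were not used here, since no annotation of bosTau8 was used.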

Additional observations from a re-analysis of the deposited data

How the results depend on the processing

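For -4 against MNEB 1 wkpp, 5 members passed in both analyses at an adjusted p below 0.05 in the authors' DESeq2 tables, against 3 at 0.01, 2 when centred on the median gene, and leaving out 1 library at a time limma voom called 0 to 3. For -4 against SNEB 1 wkpp 1 passed in the whole gene analysis alone and 2 at 0.05, against 0. For SNEB against MNEB at 1 wkpp 0 passed when centred on the median gene or with limma voom, against 1. At 16 wkpp 4 passed in the whole gene analysis alone and 1 with limma voom, against 2, and leaving out 1 library at a time limma voom called 0 to 1. The whole gene median of the members at 16 wkpp was -0.58, against -0.13 for exons. Scaled to the spike-ins the median of the members was 2.73 for -4 against MNEB 1 wkpp, 0.10 for MNEB 1 against 16 wkpp, -0.63 for SNEB 1 against 16 wkpp, and 3.33 and 4.16 for SNEB against MNEB at 1 and 16 wkpp, where all genes moved too, and the median of the members minus that of all genes was -0.87, 0.42, 0.53, -0.18 and -0.16. The median for MNEB 1 against 16 wkpp was 0.42 by limma voom and 0.27 to 0.71 in that fit with 1 library left out. Over the 60 values of single members the sign was kept in 52 in the whole gene analysis and in 60 when centred, and in 340 of 360 with a library left out. The cause of these differences was not tested. No paired analysis was possible because the columns carry no replicate numbers. Gene reads were fewest in the MNEB libraries, although the paper lists total reads similar to those of the others.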
